A study of Mus musculus with 36 samples.

Results

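The genes described are 10 transcripts of neutrophils, taken by symbol from the count tables of 36 mouse livers, in which 24421 genes were listed. They encode the calprotectin subunits S100a8 and S100a9, the primary granule proteins Mpo and Prtn3, the secondary granule proteins Ngp and Ltf, the secreted proteins Chil3 and Retnlg, and the receptors Csf3r and Cxcr2. All mice were C57BL/6J males, 7 weeks old when bought, and had eaten the CDAHFD, a choline-deficient diet low in methionine and rich in fat that brings on steatohepatitis, for 12 weeks. The CDAHFD was then replaced. In the HFD experiment a high-fat diet was given for 2 weeks, with weekly injections under the skin of Fc at 4.3 mg/kg (10 mice) or of Fc(mML1)B3 at 5 mg/kg (10 mice). In the standard diet experiment a standard diet was given for 10 days, with 3 injections of Fc at 4.3 mg/kg (9 mice) or of Fc(mML1)B3 at 5 mg/kg (7 mice). Fc is the constant fragment of human IgG1. Fc(mML1)B3 is the same fragment with a Met-binding peptide grafted into a loop, and it activates Met, the receptor of hepatocyte growth factor. The diet goes together with the experiment, its length and the number of injections, and these cannot be told apart.

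Neutrophils are short-lived white blood cells that leave the bone marrow filled with granules. The granule proteins are made in order during maturation, those of the primary granules in promyelocytes and those of the secondary granules in later precursors, so that most of their mRNA is gone from mature cells, whereas the mRNAs of calprotectin and of the surface receptors stay high. In steatohepatitis neutrophils enter the liver, and calprotectin, a dimer that binds calcium and zinc, is released from them and acts on Toll-like receptor 4 and on the receptor Ager.

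Total counts per library ranged from 14949035 to 28466853, and each end of a read pair was counted as a read. Alb, the main secretory product of hepatocytes, was at 56912 to 119872 CPM (counts scaled to library size, with TMM factors) in the 36 libraries, which were labelled liver. The 10 neutrophil genes together had only 183 to 2122 reads per library. Several of them rested on fewer than 10 reads, and raw reads are therefore given with each result. The haemoglobin genes Hba-a1, Hba-a2, Hbb-bs and Hbb-bt were listed at 0 in all 36 libraries, so the amount of blood in a sample could not be read from them. In bulk liver, fewer neutrophils and less RNA per neutrophil cannot be told apart.

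Per exon length, the calprotectin genes were the highest of the 10 in every group. In Fc mice under the HFD the median level was 11.2 reads per kilobase of exon, scaled to depth (RPKM) for S100a8 and 9.18 for S100a9. Retnlg, a resistin-like protein secreted by neutrophils, followed at 3.01 RPKM, Prtn3, a serine protease, at 2.42 and Csf3r, the receptor of granulocyte colony-stimulating factor, at 2.26. Ngp, a cathelicidin-related granule protein, and Chil3, a chitinase-like lectin also made by macrophages, were at 0.900 and 0.843 RPKM. The lowest medians were those of Cxcr2, the receptor for CXC chemokines, at 0.221 RPKM, of Ltf, the iron-binding lactoferrin, at 0.199 and of Mpo, myeloperoxidase, at 0.0970.

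**Figure D1:**
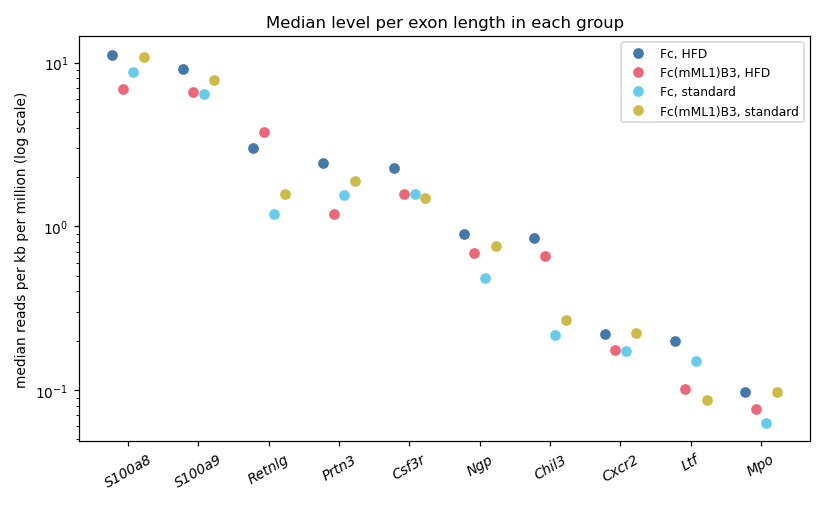
Median level of the 10 genes in each of the 4 groups, in RPKM on a log scale. S100a8 and S100a9 lie highest in all 4 groups, and the standard diet groups lie below the HFD groups for Retnlg and Chil3.

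The promoters of the 4 genes that differed between Fc(mML1)B3 and Fc under the HFD are shown first, since the results below turn on these genes. Each runs from 250 bases before to 50 bases after the annotated start and is written in the direction of the gene. Capitals mark 3 motifs searched on both strands. They are TTGCNNAA, a core of sites for C/EBP factors, GAGGAA, a core of sites for PU.1, and TATAAA, the TATA box. The sequences are from RefSeq, build GRCm38.p6. The promoter of S100a8 lies at chr3:90668821-90669120 on the plus strand, that of S100a9 at chr3:90695672-90695971 on the minus strand, that of Ngp at chr9:110419558-110419857 on the plus strand and that of Csf3r at chr4:126024409-126024708 on the plus strand. The genes themselves span chr3:90669071-90670034 (S100a8), chr3:90692630-90695721 (S100a9), chr9:110419808-110423012 (Ngp) and chr4:126024659-126044975 (Csf3r), and none of the 10 genes shares exonic bases with another gene in the annotation.
S100a8: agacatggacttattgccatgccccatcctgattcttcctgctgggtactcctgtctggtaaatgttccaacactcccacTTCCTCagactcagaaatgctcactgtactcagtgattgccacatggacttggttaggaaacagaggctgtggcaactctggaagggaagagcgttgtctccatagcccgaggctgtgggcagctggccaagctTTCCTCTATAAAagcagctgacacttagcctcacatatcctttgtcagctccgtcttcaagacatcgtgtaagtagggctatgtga
S100a9: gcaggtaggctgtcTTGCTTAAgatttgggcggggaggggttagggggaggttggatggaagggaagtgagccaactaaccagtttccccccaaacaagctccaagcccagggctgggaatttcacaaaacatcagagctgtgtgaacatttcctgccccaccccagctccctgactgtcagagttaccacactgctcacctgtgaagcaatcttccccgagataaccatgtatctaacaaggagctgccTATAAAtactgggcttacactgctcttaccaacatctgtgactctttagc
Ngp: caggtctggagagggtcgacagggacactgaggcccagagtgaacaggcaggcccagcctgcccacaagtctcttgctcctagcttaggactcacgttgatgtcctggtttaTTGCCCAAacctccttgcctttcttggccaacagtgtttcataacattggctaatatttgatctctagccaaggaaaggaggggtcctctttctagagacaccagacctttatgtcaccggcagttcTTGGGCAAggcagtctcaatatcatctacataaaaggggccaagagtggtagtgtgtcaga
Csf3r: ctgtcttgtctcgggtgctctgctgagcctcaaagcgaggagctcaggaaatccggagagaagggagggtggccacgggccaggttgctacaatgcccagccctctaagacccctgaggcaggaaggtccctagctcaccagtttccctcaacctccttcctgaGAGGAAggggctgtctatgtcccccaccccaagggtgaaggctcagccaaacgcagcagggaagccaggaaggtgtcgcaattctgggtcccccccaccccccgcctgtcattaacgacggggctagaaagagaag

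All 10 genes had a promoter in the RefSeq table. TTGCNNAA was found in 4 of them (S100a9, Ltf, Ngp and Retnlg), against 10.8% of the 32851 promoters of the same length. Ngp, whose transcript is made in the secondary granule stage, had 2 matches. GAGGAA was found in 6 (S100a8, Mpo, Prtn3, Ltf, Csf3r and Cxcr2), against 28.3% of all promoters. TATAAA was found in 3 (S100a8, S100a9 and Chil3), against 13.6%. Relative to the annotated start, its first base lay at -30 in S100a8, at 0 in S100a9 and at -3 in Chil3. No match of these motifs overlapped another in the promoters printed. A match is a description of the letters and not a measured site.

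Fc libraries of 3 mice stood apart from the rest of their groups, and they touch every comparison below that includes Fc mice. They are Fc mice 7 and 8 under the HFD and Fc mouse 5 under the standard diet. Under the HFD, mouse 7 had 1665 reads of the 10 genes and mouse 8 had 1579, whereas the other 8 Fc mice had 293 to 739. Under the standard diet, mouse 5 had 2122 reads and the other 8 Fc mice had 319 to 487. Among Fc(mML1)B3 mice the highest sum was 543 reads in the HFD experiment and 732 in the other. Scaled to depth, the 3 libraries were at 104.1, 93.1 and 103.0 summed CPM, and the other 33 were at 9.62 to 39.0.

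The 3 libraries were high in nearly every member. Mice 7 and 8 lay above the other 8 Fc mice of the HFD in 8 of the 10 genes, the exceptions being Prtn3 and Csf3r, and mouse 5 lay above the other 8 Fc mice of the standard diet in all 10. Both held for 8 members, against 1.87% of the 14105 genes tested over all 36 libraries. The folds differed between the members. Against the median of the other Fc mice, Ngp was 11.2-fold and 18.4-fold higher in mice 7 and 8 and 25.0-fold higher in mouse 5, with 162, 283 and 200 reads. Mpo was 18.2-fold, 15.3-fold and 16.0-fold higher, with 54, 48 and 40 reads. The corresponding values of S100a8 were 5.98-fold, 5.42-fold and 7.62-fold. Prtn3, also a granule gene, was 4.28-fold higher in mouse 7 and 17.3-fold higher in mouse 5 but 0.527-fold in mouse 8, below the median of the others. Csf3r was at 1.29-fold, 1.44-fold and 1.46-fold. Mice 7 and 8 held 72.9% of all Mpo reads of the 10 Fc mice under the HFD, 73.1% of the Ltf reads, 72.0% of the Ngp reads and 52.5% of the S100a8 reads, but 26.8% of the Prtn3 reads and 20.0% of the Csf3r reads. These 3 mice were singled out after their values were seen, and their values are a description.

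**Figure D2:**
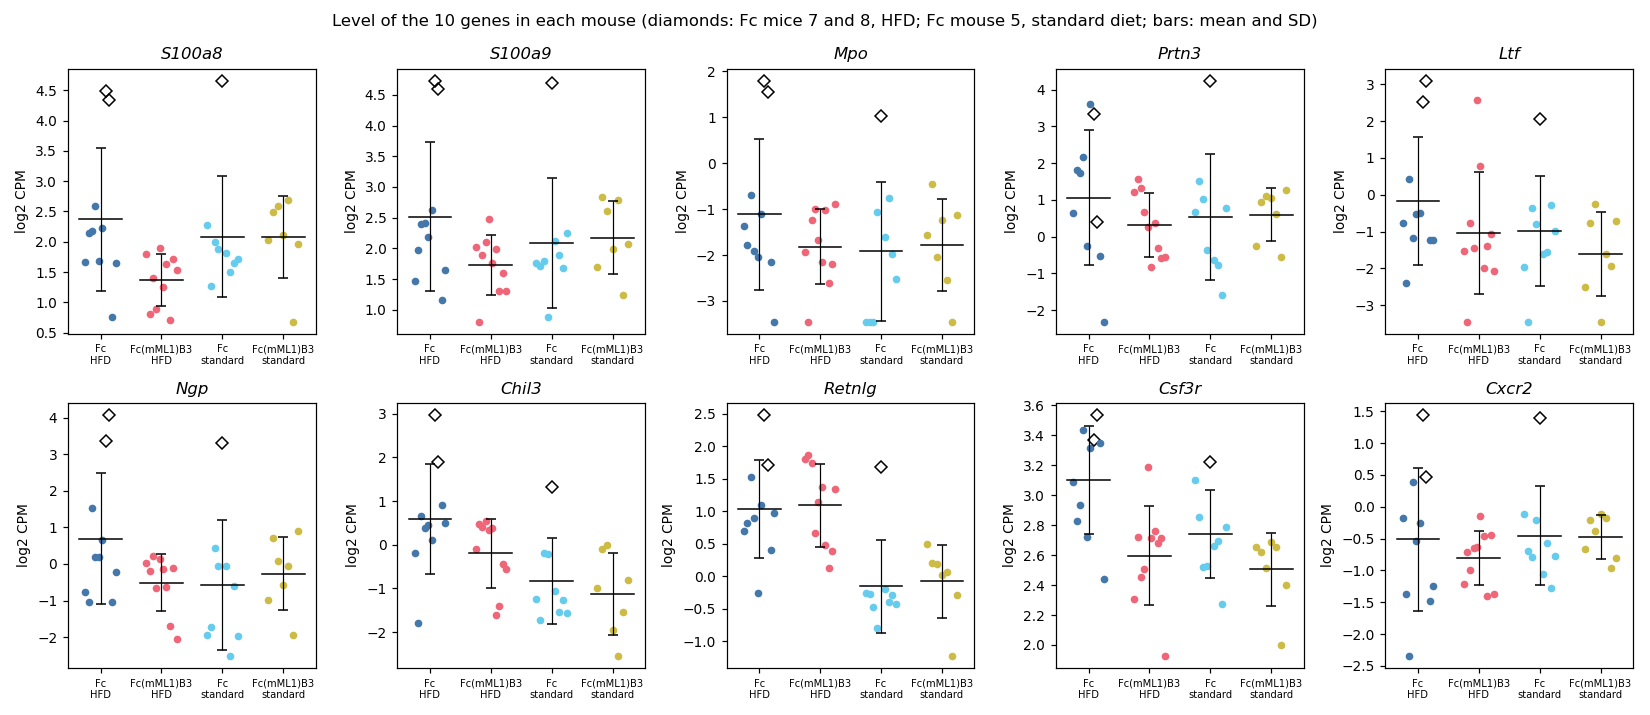
Log2 CPM of the 10 genes in each of the 36 mice by group, with the mean and SD as bars. Open diamonds mark Fc mice 7 and 8 under the HFD and Fc mouse 5 under the standard diet, which lie at the top of their group in most panels, for S100a8 at 356, 342 and 519 reads.

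The first question was whether Met activation changed these genes under the HFD. S100a8 had 48, 83.5 and 356 reads (lowest, median and highest library) in Fc mice and 26, 46.5 and 80 in Fc(mML1)B3 mice. All 10 treated mice lay below the Fc median in CPM, and the groups overlapped. Its level was 7.25 ± 7.46 CPM (SD, n = 10) with Fc and 2.59 ± 0.75 CPM (SD, n = 10) with Fc(mML1)B3. S100a9 had 54, 98 and 424 reads with Fc and 32, 64 and 99 with Fc(mML1)B3, and 9 of 10 treated mice lay below the Fc median. Among the granule genes, Ngp had 8, 24 and 283 reads with Fc against 2, 13.5 and 26 with Fc(mML1)B3, again with 9 of 10 treated mice below the Fc median. Csf3r, through which granulocyte colony-stimulating factor drives neutrophil production, had 97, 167 and 303 reads against 50, 122.5 and 176. All 10 treated mice lay below its Fc median, and its Fc group had no library far from the rest.

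In the quasi-likelihood F-test of edgeR with Benjamini-Hochberg adjustment, 8 of the 10 genes passed the filter for low counts, and 4 of these were called lower at an adjusted p below 0.05. Of all 13299 genes tested, 6.68% were called lower, 8.14% higher and 14.8% were called in either direction. The log2 fold change of S100a8 was -1.46 (standard error 0.40, adjusted p = 0.0166), that of S100a9 was -1.27 (standard error 0.42, adjusted p = 0.0423), that of Ngp was -2.29 (standard error 0.65, adjusted p = 0.0197) and that of Csf3r was -0.50 (standard error 0.14, adjusted p = 0.0219). DESeq2 called 5 members. Limma-voom with quality weights called Csf3r only, with S100a8 at -0.77 (adjusted p = 0.105), S100a9 at -0.48 (adjusted p = 0.299) and Ngp at -0.82 (adjusted p = 0.294). S100a8, S100a9 and Mpo were named by the study from these libraries, so their direction is not independent evidence.

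Without Fc mice 7 and 8, no member was called. S100a8 was then at -0.52 (adjusted p = 0.125), S100a9 at -0.25 (adjusted p = 0.50) and Ngp at -0.57 (adjusted p = 0.371), while Csf3r was at -0.41 (adjusted p = 0.0720). Leaving out mouse 8 alone ended the calls of S100a9 and Ngp, and leaving out mouse 7 alone ended that of S100a9. The call of S100a9 was also lost without any 1 of the treated mice other than mouse 5, with adjusted p from edgeR of 0.0526 to 0.0719. The sample numbers in the names of the treated libraries restart once, which gives 2 runs. With mice 1 to 4 alone or with mice 5 to 10 alone against all Fc mice, 0 members were called, and the log2 fold changes of S100a8 were -1.56 and -1.38 and those of Csf3r were -0.61 and -0.42.

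The other 6 members were not called under the HFD in the edgeR fit of all mice. Chil3 was called by DESeq2 (-1.18, adjusted p = 0.0453) and without Fc mouse 2 (-1.31, adjusted p = 0.0432), and Prtn3 was called without Fc mouse 10 (-1.53, adjusted p = 0.0454). With a threshold of an adjusted p below 0.1 and a fold above 2, Chil3 and Prtn3 were called and Csf3r was not. Prtn3 had 2, 45.5 and 196 reads with Fc and 7, 21 and 66 with Fc(mML1)B3, with a log2 fold change of -1.40 (adjusted p = 0.0928). Its highest Fc library was that of mouse 6, not mouse 7 or 8. Chil3 had 4, 28 and 124 reads against 6, 19 and 30 and was at -1.18 (adjusted p = 0.0851). Cxcr2 had 2, 14 and 42 reads against 4, 10 and 16 and was at -0.68 (adjusted p = 0.271). Retnlg had nearly equal group means, with 20, 35.5 and 88 reads against 19, 35 and 82 and a log2 fold change of 0.03 (95% interval -0.56 to 0.63, adjusted p = 0.953). Its 3 highest treated libraries, with 80, 82 and 79 reads, were those of mice 1 to 3, and the difference was 0.46 with the libraries of the first run and -0.33 with those of the second.

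Mpo and Ltf did not pass the filter under the HFD. Mpo had 6, 4, 10, 4, 4, 6, 54, 48, 4 and 0 reads in Fc mice 1 to 10 and 4, 0, 8, 6, 4, 2, 10, 2, 2 and 6 in Fc(mML1)B3 mice 1 to 10. Outside mice 7 and 8, both groups therefore had at most 10 reads, and their mean log2 CPM differed by -0.0015. At this depth a small difference could be missed. With every gene of at least 1 read kept, Mpo was at -1.74 (adjusted p = 0.120). Ltf had 2, 10 and 144 reads with Fc and 0, 6 and 106 with Fc(mML1)B3, the latter in treated mouse 5, and was at -0.92 (adjusted p = 0.478) in the same fit.

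The difference in mean log2 CPM was also tested for each gene by 2-sided permutation tests, 20 over both experiments. None had an adjusted p below 0.05. Under the HFD, 2 had an unadjusted p below 0.05, Csf3r at -0.50 (permutation test with 100000 resamples, p = 0.00512, adjusted p = 0.102) and S100a8 at -1.0 (p = 0.0119, adjusted p = 0.119 in the same permutation test). Under the standard diet there was none.

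**Figure D3:**
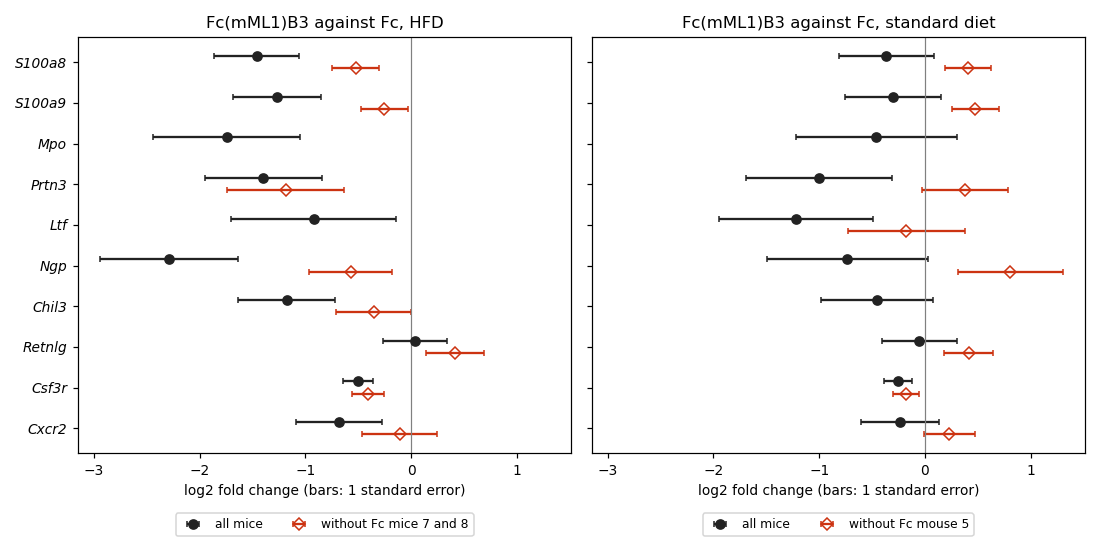
Log2 fold change of Fc(mML1)B3 against Fc for the 10 genes, with 1 standard error, under the HFD and the standard diet. Filled circles use all mice, open diamonds leave out Fc mice 7 and 8 or Fc mouse 5 where the gene passed the filter, and S100a8 moves from -1.46 to -0.52 and from -0.36 to 0.41.

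Under the standard diet no member was called, of 9 tested, against 16.1% of 13570 genes in either direction, 7.55% lower and 8.56% higher. None had an unadjusted p below 0.05 in edgeR, and DESeq2 and limma-voom also called 0 members. The directions given here are those of edgeR, and several turned with the tool. DESeq2 put S100a8 at 0.38, Ngp at 0.76 and Prtn3 at 0.34, and limma-voom put S100a8 at 0.15, S100a9 at 0.21 and Ngp at 0.62. The DESeq2 values lay close to those of edgeR without Fc mouse 5 (0.41, 0.81 and 0.38), so they are not independent of that mouse. S100a8 had 44, 78 and 519 reads with Fc and 36, 101 and 160 with Fc(mML1)B3. S100a9 had 36, 79 and 534 reads against 54, 102 and 200. For both, the highest library was an Fc library but most treated mice lay above the Fc median, 6 of 7 for S100a8 and 5 of 7 for S100a9. The log2 fold changes were -0.36 (standard error 0.45, 95% interval -1.24 to 0.51, adjusted p = 0.627) and -0.30 (standard error 0.45, adjusted p = 0.694).

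The sample numbers in the library names split the Fc group. All 7 treated mice and Fc mice 6 to 9 had numbers above 100, and Fc mice 1 to 5, mouse 5 among them, had numbers of 8 to 12. Within the libraries numbered above 100, S100a8 was at 0.53, S100a9 at 0.28, Ngp at 1.10, Prtn3 at 1.09, Chil3 at 0.58, Retnlg at 0.36 and Cxcr2 at 0.53, Csf3r was at -0.10 and Ltf at -0.30, and 0 were called. The lower-numbered libraries hold Fc mice only and gave no value.

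The direction of 6 members turned without Fc mouse 5. S100a8 was then at 0.41 (adjusted p = 0.224), S100a9 at 0.48 (adjusted p = 0.162), Ngp at 0.81 (adjusted p = 0.297), Prtn3 at 0.38, Retnlg at 0.41 and Cxcr2 at 0.23, and still none was called. With all mice, Ngp had 2, 14 and 200 reads with Fc and 4, 22 and 44 with Fc(mML1)B3 and was at -0.73. Prtn3 had 6, 36 and 389 reads against 14, 47 and 58 and was at -1.0. Ltf, with 0, 10 and 84 reads against 0, 6 and 20, was at -1.22 (adjusted p = 0.279). Chil3 had 4, 8 and 50 reads against 2, 10 and 24 and was at -0.46, Retnlg had 10, 16 and 64 reads against 8, 24 and 32 and was at -0.05, and Cxcr2 had 8, 12 and 52 reads against 10, 18 and 22 and was at -0.24. Mpo, below the filter here too, had 0, 0, 0, 8, 40, 6, 12, 4 and 2 reads in Fc mice 1 to 9 and 6, 18, 4, 8, 2, 0 and 9 in Fc(mML1)B3 mice 1 to 7.

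Csf3r kept its sign without mouse 5. It had 116, 153 and 204 reads with Fc and 93, 150 and 171 with Fc(mML1)B3, and all 7 treated mice lay below the Fc median. Its log2 fold change was -0.25 (95% interval -0.51 to 0.01, adjusted p = 0.211) and -0.18 without mouse 5. The difference between its values in the 2 experiments, tested with an interaction term, was 0.26 (95% interval -0.14 to 0.67, adjusted p = 0.519).

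The change with Fc(mML1)B3 in one experiment was set against that in the other, for all 10 members over the 36 libraries. None was called, with an unadjusted p below 0.05 for 0 of the 9 members that passed the filter, against 9.06% of 14105 genes called, 4.40% lower and 4.66% higher. DESeq2 and limma-voom called 0 members as well. The difference (standard diet minus HFD) was 1.11 for S100a8 (standard error 0.63, adjusted p = 0.330), 0.98 for S100a9 (standard error 0.65, adjusted p = 0.430) and 1.57 for Ngp (standard error 1.05, adjusted p = 0.433). This result too hung on single Fc libraries. Without Fc mouse 5, S100a8 was at 1.88 (adjusted p = 0.0166), S100a9 at 1.76 (adjusted p = 0.0341) and Ngp at 3.11 (adjusted p = 0.0269), and the 3 were called. Without mouse 5 and without Fc mice 7 and 8, S100a8 was at 0.94 (adjusted p = 0.0588), S100a9 at 0.74, Ngp at 1.38, and none was called. The last fits were chosen after seeing the data.

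The secreted proteins were called lower under the standard diet in Fc mice. In these mice, Retnlg was lower, at 0.95 ± 0.81 CPM (SD, n = 9) under the standard diet against 2.24 ± 1.34 CPM (SD, n = 10) under the HFD, and the log2 ratio was -1.22 with a standard error of 0.36 (adjusted p = 0.00843). Chil3 was at 0.64 ± 0.71 CPM (SD, n = 9) against 2.05 ± 2.20 CPM (SD, n = 10), and the log2 ratio was -1.67 with a standard error of 0.54 (adjusted p = 0.0142). Csf3r was at 6.71 ± 1.42 CPM (SD, n = 9) against 8.72 ± 2.05 CPM (SD, n = 10), with -0.38 (standard error 0.14, adjusted p = 0.0321). These were the 3 members called, of 9 tested, where 49.0% of 13506 genes were called and 25.2% were lower, so a call was common in this comparison. Without mice 7 and 8 only Retnlg was called, at -0.84 (adjusted p = 0.0427), with Chil3 at -0.86 (adjusted p = 0.118) and Csf3r at -0.29 (adjusted p = 0.103). The call of Csf3r was lost without any 1 of Fc mice 4, 6, 7, 8 or 9 of the HFD or 3, 4, 6 or 8 of the standard diet, with adjusted p from edgeR of 0.0505 to 0.0737. Without mouse 5, 8 members were called lower, with Ngp at -2.70, Chil3 at -2.27, Ltf at -2.21 and Retnlg at -1.67 among them. DESeq2, given all mice and run with its default settings, called 7, Ngp at -2.63 and Ltf at -2.24 among them. These values lay close to those of edgeR without mouse 5, and they are not a separate reading of the full group. Without all 3 libraries it was again Retnlg at -1.30, Chil3 at -1.46 and Csf3r at -0.35, whereas S100a8 was at -0.14 (adjusted p = 0.597) and S100a9 at -0.24 (adjusted p = 0.364). With all mice, 6 of 8 T and NK cell markers, 6 of 7 B cell markers and 3 of 8 monocyte markers tested were also called lower. Of Kupffer cell markers 2 of 8 were lower, and of hepatocyte markers 3 of 7 were higher. The part of these cells in the difference between the Fc groups was not tested.

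The treated groups hold none of these 3 libraries. Between them, Retnlg was again lower under the standard diet, with 0.91 ± 0.31 CPM (SD, n = 7) against 2.23 ± 0.96 CPM (SD, n = 10) under the HFD, and the log2 ratio was -1.31 with a standard error of 0.30 (adjusted p = 0.00159). Its 7 libraries under the standard diet lay at 0.336 to 1.32 CPM and the 10 under the HFD at 1.01 to 3.57 CPM, with some overlap. S100a8 was higher under the standard diet, at 4.48 ± 1.65 CPM (SD, n = 7) against 2.59 ± 0.75 CPM (SD, n = 10), and the log2 ratio was 0.78 with a standard error of 0.23 (adjusted p = 0.0115). S100a9 was at 0.48 (standard error 0.23, adjusted p = 0.113) and Chil3 at -0.97 (standard error 0.43, adjusted p = 0.0796). S100a9 was called without treated mouse 5 of the HFD (0.58) or 6 of the standard diet (0.59), and Chil3 without treated mouse 7 (-1.09) or 8 (-1.08) of the HFD or 2 (-1.20) or 3 (-1.22) of the standard diet. Ltf, below the filter, was at -1.5 (adjusted p = 0.178). Of all 13627 genes tested, 38.2% were called, 19.1% in each direction. S100a8 and Retnlg thus lay on opposite sides of the same comparison, and each stayed called in all 17 fits that left out 1 library. This comparison shares its HFD and standard diet groups with those above.

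By group median in CPM, S100a8 was ordered Fc under the HFD (4.38), Fc(mML1)B3 under the standard diet (4.23), Fc under the standard diet (3.41) and Fc(mML1)B3 under the HFD (2.69). Of the neighbours in this order, only the 2 standard diet groups were compared by a test, and they did not differ beyond the spread between mice. For Retnlg the order was Fc(mML1)B3 under the HFD (2.28), Fc under the HFD (1.83), Fc(mML1)B3 under the standard diet (0.954) and Fc under the standard diet (0.725), and neither diet's pair differed beyond the spread between mice. The middle step, between mice that differed in both diet and protein, was not tested.

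S100a8 and S100a9, whose products form a single dimer, were compared mouse by mouse. Pooled values are not given, because the 3 high Fc libraries form a cluster of their own. Among the other 8 Fc mice of the HFD, log2 CPM of the 2 genes correlated with Pearson's r = 0.854 (exact permutation test, p = 0.00734, adjusted over 4 groups p = 0.0167) and Spearman's rho = 0.929 (exact permutation test, p = 0.00223, adjusted p = 0.00893). In Fc(mML1)B3 mice under the HFD r was 0.581 and rho 0.600 (n = 10, permutation tests with 100000 resamples, p = 0.0831 and 0.0742, adjusted p = 0.111 and 0.0990). In the other 8 Fc mice of the standard diet r was -0.118 and rho -0.0238 (exact permutation tests, p = 0.758 and 0.977, adjusted p unchanged). In mice given Fc(mML1)B3 on the standard diet r was 0.905 and rho 0.786 (n = 7, exact permutation tests, p = 0.00833 and 0.0480, adjusted p = 0.0167 and 0.0960).

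The relations were read again with fewer mice. Without the 2 mice farthest from the median of S100a8, r was 0.755 in Fc mice under the HFD (n = 6, exact permutation test, p = 0.106), 0.117 in treated mice under the HFD, -0.307 in Fc mice under the standard diet and 0.894 in treated mice under the standard diet (n = 5, exact permutation test, p = 0.133). Spearman's rho was then 0.886 (exact permutation test, p = 0.0333), 0.238, -0.257 and 0.600 in the same order. Per read of S100a8, the libraries held 0.487 to 2.38 reads of S100a9, with group medians of 1.03 to 1.35.

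**Figure D4:**
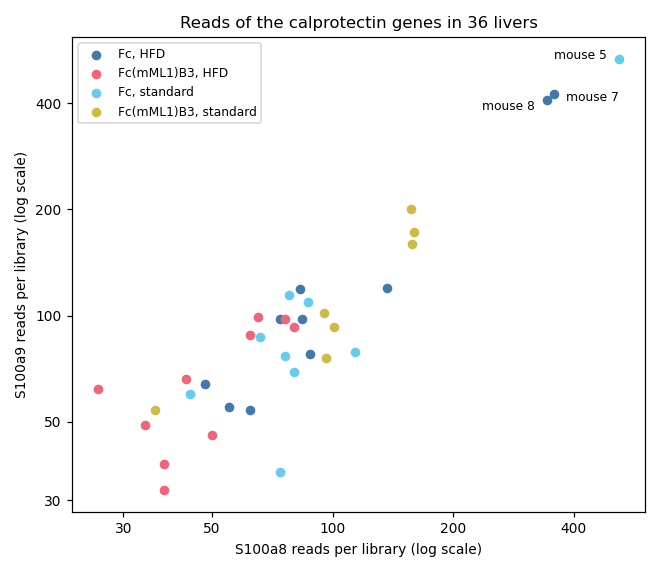
Reads of S100a8 and of S100a9 in each of the 36 libraries, both on log scales, coloured by group. Fc mice 7 and 8 under the HFD and Fc mouse 5 under the standard diet lie apart at 342 to 519 reads of S100a8, and every other library has at most 160.

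Other neutrophil genes were read from lists of granule, surface, chemoattractant, adhesion, receptor and transcription factor genes. Of 6 other primary granule genes, only Lyz2, also made by macrophages, passed the filter under the HFD, and it was not called (-0.40, adjusted p = 0.104). Elane, neutrophil elastase, had 34 and 18 reads in Fc mice 7 and 8 and 28 in Fc mouse 5, against group medians of 9 and 5 reads, and Ctsg, cathepsin G, had 6, 12 and 12 reads against medians of 0. Of 11 other secondary and tertiary granule genes, 7 were tested under the HFD and 0 were called. Their median log2 fold change was -0.28, against -0.01 over all genes tested. In Fc mice under the HFD this list summed to 3784 to 8390 CPM, against 16.15 to 104.1 CPM for the members. At such levels the list cannot be read as neutrophil transcripts alone, and its 0 calls say little about them. Camp, the cathelicidin, had 30 and 68 reads in mice 7 and 8 and 52 in mouse 5, with medians of 6 and 3, and Mmp8, Mmp9 and Cd177 were likewise highest in these libraries. In all, 2 of the 6 other primary granule genes, 4 of the 11 other secondary and tertiary granule genes and 3 of the 24 mature surface and signalling genes in the files were highest in all 3 libraries. The share over all 14105 genes tested was 1.87%. Lcn2, lipocalin 2, which hepatocytes also secrete, was highest of its group in 2 of the 3 libraries. It was at 830.9 CPM in mouse 7, 93.6 CPM in mouse 8 and 126.7 to 344.5 CPM in the other Fc mice under the HFD. In mouse 5 it was at 269.8 CPM, against 16.4 to 57.8 CPM in the other Fc mice of its diet.

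Of 25 listed genes of mature neutrophil surface and signalling, 16 were tested under the HFD and 1 was called lower, the Src family kinase Fgr at -0.45 (adjusted p = 0.0315), with 15 of the 16 below 0 and a list median of -0.33. This share is close to the 6.68% of all genes tested that were called lower. The chemoattractant, adhesion and receptor lists had at most 1 called gene each, and nothing is read from these counts about the lists. The summed adhesion genes (283.2 and 289.0 CPM, others at most 220.1) and the summed receptor genes (462.5 and 474.1 CPM, others at most 374.7) were highest in Fc mice 7 and 8 under the HFD. In mouse 5 the adhesion sum was 172.3 CPM, against at most 164.6 CPM in the other Fc mice of its diet, and the receptor sum of 300.3 CPM lay within their range. The chemoattractant sum was 37.97 CPM in mouse 5, against at most 21.22 CPM in the other Fc mice of its diet. Under the HFD it was 34.93 and 22.46 CPM in mice 7 and 8, within the 18.86 to 37.27 CPM of the other Fc mice. Among the chemoattractants, 6 of 13 were tested and Il1a was lower at -0.44 (adjusted p = 0.0148), while Cxcl1, a ligand of Cxcr2, was at -0.17 (adjusted p = 0.572). Of the 8 adhesion genes 7 were tested and 0 were called. Of the 6 genes for calprotectin's receptors and their partners, Ly96, the co-receptor of Toll-like receptor 4, was lower at -0.32 (adjusted p = 0.0343).

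On the standard diet 16.1% of all genes tested were called. There were 0 calls among 1 other primary granule gene, 8 other secondary and tertiary granule genes and 18 surface and signalling genes tested. The list of other secondary and tertiary granule genes summed to 3506 to 9928 CPM in Fc mice of this diet. It cannot be read as neutrophil transcripts alone here either. Tlr4 was lower with Fc(mML1)B3 at -0.37 (adjusted p = 0.0478). Of the 7 adhesion genes tested 2 were called. Vcam1 was higher at 0.32 (adjusted p = 0.0224) and Cd44 was lower at -0.31 (adjusted p = 0.0291).

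Cebpe, the transcription factor that granulocytes need for their secondary granules, was read beside the granule genes. Under the HFD it was lower with Fc(mML1)B3, at -0.80 (standard error 0.14, adjusted p = 0.000609), with a median of 156 reads in Fc mice and 86 in Fc(mML1)B3 mice. Fc mice 7 and 8, the highest in Ngp, Ltf and Mpo, were the lowest Fc mice in Cebpe, at 5.37 and 4.89 CPM against 6.75 to 11.8 CPM in the other 8. Cebpd, another C/EBP factor of the same list of 8, went the other way, at 20.6 and 20.4 CPM in mice 7 and 8 against 5.83 to 18.5 CPM in the other Fc mice. In mouse 5 Cebpd was at 10.6 CPM against 4.47 to 9.17 CPM, and with Fc(mML1)B3 under the HFD it was not called (-0.08, adjusted p = 0.852). Fc(mML1)B3 mice had 3.27 to 5.88 CPM of Cebpe. In the standard diet experiment Cebpe did not pass the test (-0.02, adjusted p = 0.943), and mouse 5 had 6.41 CPM, among 4.6 to 9.72 CPM in the other Fc mice. The difference between the experiments was 0.79 (standard error 0.19, adjusted p = 0.00580).

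Markers of other blood and liver cells were followed in the same libraries. Summed over 8 monocyte markers, Fc mice had 38.4 to 97.9 CPM under the HFD and Fc(mML1)B3 mice 34.3 to 82.5 CPM, with 0 of 7 tested markers called. All 7 had a log2 fold change below 0, with a median of -0.46. Summed over 8 Kupffer cell markers, the ranges were 293.9 to 1021 CPM and 302.8 to 665.1 CPM, with 0 of 8 called. This sum was highest of its group in all 3 high Fc libraries, at 1021 and 682.7 CPM in mice 7 and 8 (next 678.9) and 613.2 CPM in mouse 5 (next 495.4). B cell markers moved with the neutrophil genes under the HFD, with 5 of 7 called lower against 6.68% of all genes tested, and sums of 17.3 to 46.8 CPM with Fc against 12.9 to 23.8 CPM with Fc(mML1)B3, and their part in the neutrophil result was not tested. Mouse 7 had the highest B cell sum of the Fc mice under the HFD, at 46.8 CPM (next 44.8), and mouse 8 had 34.1 CPM. The 3 high Fc libraries also lay above all others of their group for 2 of 8 monocyte markers, Ly6c2 and Vcan. The same held for 2 of 8 Kupffer cell markers, C1qa and C1qb. Each share was 25%, against 12.5% of the mature neutrophil surface and signalling genes and 1.87% of all genes tested. The part of these cells in the high libraries was not tested. No B cell marker put mice 7 and 8 above all other Fc mice, and 0 did so for mouse 5. The sum over 12 erythroid markers, of which the 4 haemoglobin genes were at 0, was lowest in mice 7 and 8, at 87.4 and 105.7 CPM against 107.7 to 168.2 CPM in the other Fc mice under the HFD. In mouse 5 it was 188.5 CPM, within the 174.7 to 203.1 CPM of the other Fc mice of its diet. Of 8 T and NK cell markers 7 were tested and 0 called, with 6 below 0 and a median of -0.41. The part of monocytes, T cells and NK cells in the neutrophil result was not tested. Eosinophil, mast cell and basophil markers summed under the HFD to 1.65 to 7.96 CPM with Fc and 1.65 to 3.89 CPM with Fc(mML1)B3. Mice 7 and 8 were highest, at 4.50 and 7.96 CPM against at most 3.34 CPM in the other Fc mice. Cma1, Mcpt8 and Fcer1a were at 0 in all Fc mice under the HFD. The monocyte sum was highest in Fc mouse 7 or 8 (97.9 CPM, other Fc mice at most 83.0), but mouse 5 was not the highest of its group. Summed cell cycle genes reached 54.5 CPM in mouse 7 or 8 (others at most 45.0) and 38.0 CPM in mouse 5 (others at most 36.7). Megakaryocyte and platelet markers summed to 8.79 CPM in mouse 5 (others at most 6.995). Under the HFD another Fc mouse had their highest sum, at 8.42 CPM. Of the 8 hepatocyte markers 7 were tested under the HFD, and 0 were called.

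**Figure D5:**
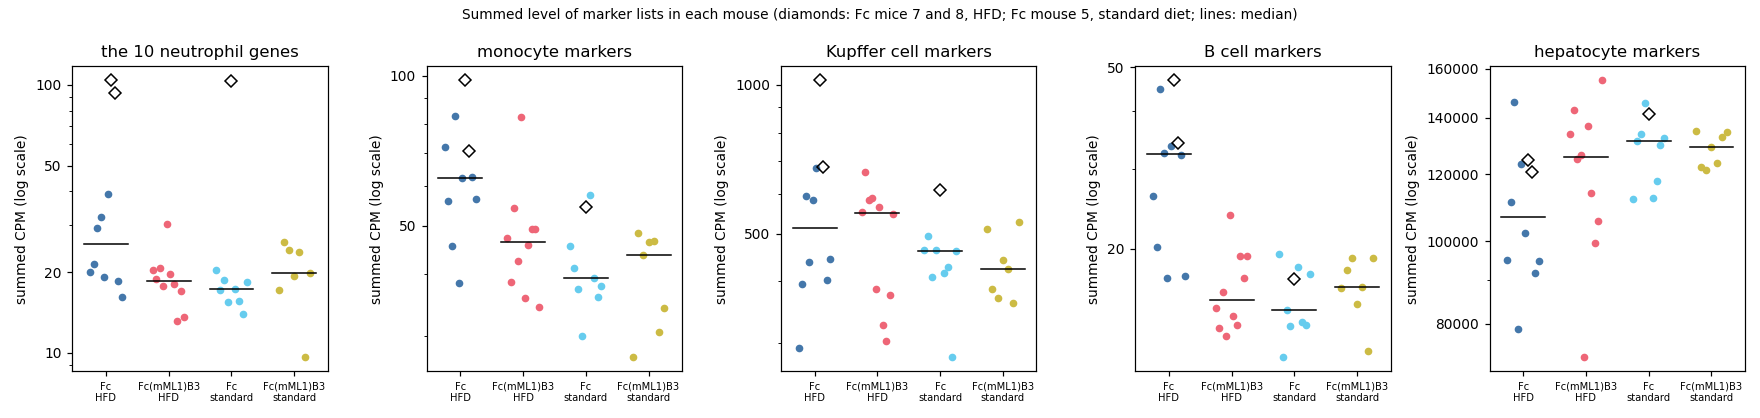
Summed CPM of the 10 neutrophil genes and of 4 marker lists in each mouse, on log scales, with group medians as lines. The 3 Fc libraries drawn as diamonds lie at 93.1 to 104.1 CPM of the neutrophil genes, above all others, but within the range of their group for B cell markers under the standard diet and for hepatocyte markers under both diets.

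Genes whose level followed S100a8 and S100a9 were sought among the 12489 genes with a mean of at least 1 CPM. Group means were subtracted, and Spearman's rho with the mean log2 CPM of the 2 genes was taken over 36 libraries, as a description. The 10 highest were Casp1 (0.767), Prkcb (0.759), Snx5 (0.758), Dram1 (0.751), Myo1g (0.726), Cd53 (0.721), Plac8 (0.716), Ms4a6d (0.715), Ubd (0.712) and H2-Eb1 (0.704). Without Fc mice 7 and 8, over 34 libraries, 5 of them were again among the 10 highest, Prkcb (0.664), Snx5 (0.630), Plac8 (0.624), Casp1 (0.624) and Dram1 (0.621), and the highest was Abracl (0.714). The other members followed less closely, from 0.627 for Ngp and 0.617 for Cxcr2 down to 0.347 for Chil3 over the 36 libraries. Without all 3 high Fc libraries, over 33, Ngp was at 0.515, Cxcr2 at 0.503 and Chil3 at 0.152, with the rest at 0.375 to 0.433. Over these 33 libraries Npm1 was at 0.727 and Abracl at 0.714.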

How the data were processed

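Liver RNA of 36 mice was sequenced in pairs. The authors trimmed reads with fastp, removed ribosomal reads with Bowtie2, aligned the rest to mm10 with STAR and counted them per gene with featureCounts, and they deposited raw counts per gene. Each end was counted, strand was ignored and reads with several places were left out, so transcripts of near-identical copies are undercounted.

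Groups came from the sample titles. The members and gene lists were chosen with earlier results of these data known. Counts were tested with edgeR 4.0.16 (R 4.3.3): TMM scaling, the default filter on low counts, the quasi-likelihood F-test and Benjamini-Hochberg adjustment over all genes tested, with a threshold of 0.05. Members below the filter were read from a fit that kept every gene with at least 1 read. By rule, the genes named were the 10 members, at most 4 called genes of a list in a comparison of Fc(mML1)B3 with Fc, and the 10 genes most like S100a8 and S100a9. Other genes named (Lyz2, Elane, Ctsg, Camp, Mmp8, Mmp9, Cd177, Lcn2, Cxcl1, Cebpd, Ly6c2, Vcan, C1qa, C1qb, Abracl, Npm1 and those at 0) were chosen after their values were seen. CPM used TMM-scaled library sizes, and log2 CPM a prior count of 2. Permutation tests used scipy 1.17.1. Alternatives were DESeq2 1.42.0, limma-voom 3.58.1, other filters and scaling, a replicate block, single libraries left out and sets of libraries left out, the sets being chosen after seeing the data. The test was run on simulated data with known changes. No replicate pair agreed within sampling noise. The labels do not say how the livers were drained of blood. The number of reads limits Mpo, Ltf, Cxcr2 and, under the standard diet, Chil3, and p-values measure the spread between mice only.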

Additional observations from a re-analysis of the deposited data

Results flagged for a closer look

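Dixon's test was made in each of the 4 groups for each of the 10 genes, 40 tests in all, and 7 stood out. Chance gives about 1 in 20 for independent tests. These tests are not independent, since the 10 genes were read in the same mice. All flags fell on Fc mouse 5 and Fc(mML1)B3 mouse 6 of the standard diet. Fc mouse 5 under the standard diet, the highest of its group for all 10 genes, was flagged for 5 of them. Its log2 CPM was 4.66 for S100a8 (nearest library 2.28), 4.70 for S100a9 (nearest 2.25), 1.33 for Chil3 (nearest -0.20), 1.68 for Retnlg (nearest -0.19) and 1.39 for Cxcr2 (nearest -0.11). Fc(mML1)B3 mouse 6 under the standard diet was flagged as the lowest library for 2 genes, with a log2 CPM of 0.68 for S100a8 (nearest 1.97) and 2.00 for Csf3r (nearest 2.4). It was also the lowest of its group for S100a9, Mpo, Prtn3, Ngp, Retnlg and Cxcr2, which were not flagged. Fc mice 7 and 8 under the HFD did not stand out in this test, which looks at 1 library at a time.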

How the results depend on the processing

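Of 1220 values under alternatives, 1078 were labelled the same, 56 weaker and 26 stronger, and 60 turned in sign. For a single gene, the same means that direction and side of the threshold were kept. The values include counts of calls, for which small shifts were also labelled the same, as from 4 to 3 or 5 under the HFD. Causes were not tested. Under the HFD, where 4 members were called, limma-voom with quality weights called 1, the fit without Fc mice 7 and 8 called 0, each run of treated libraries alone called 0, and leaving out 1 library gave 2 to 5. The replicate block called 1. The numbers did not pair the mice, since only 1 of 10 same-numbered pairs under the HFD and 0 of 7 under the standard diet correlated above 0.1, and the block changed no count of calls in the standard diet experiment. Under the standard diet leaving out 1 library gave 0 to 0. Between Fc groups the count of 3 was 7 with DESeq2, 1 without mice 7 and 8, and 2 to 8 without 1 library. Between treated groups the count of 2 was 1 with an adjusted p below 0.1 and a fold above 2, and 2 to 3 without 1 library. The interaction count was 0 to 3. Correlations of S100a8 and S100a9 of 0.854 and 0.905 were 0.755 and 0.894 without 2 mice. Turned signs under the HFD were Retnlg -0.33 with the second run, and -0.067 to 0.29 without 1 library. Under the standard diet, DESeq2 gave Prtn3 0.34, S100a8 0.38 and Ngp 0.76. Voom gave Cxcr2 0.15, Prtn3 0.24, Retnlg 0.17, S100a8 0.15, S100a9 0.21 and Ngp 0.62. The block gave Retnlg 4.2e-05 and S100a9 0.013. Libraries with S numbers above 100 gave Cxcr2 0.53, Prtn3 1.09, Retnlg 0.36, S100a8 0.53, S100a9 0.28, Chil3 0.58 and Ngp 1.10. Without 1 library, Cxcr2 ranged from -0.34 to 0.23, Prtn3 from -1.16 to 0.38, Retnlg from -0.16 to 0.41, S100a8 from -0.47 to 0.41, S100a9 from -0.43 to 0.48 and Ngp from -0.97 to 0.81. Between Fc groups voom gave Cxcr2 0.077. Without mice 7 and 8, Cxcr2 was 0.48, S100a8 0.62, S100a9 0.54, Ngp 0.55 and Ltf 0.60, and without all 3 libraries Cxcr2 was 0.024. Without 1 library, Cxcr2 ranged from -0.53 to 0.31, Prtn3 from -1.59 to 0.19 and S100a8 from -1.07 to 0.081. In the interaction voom gave Retnlg 0.020. Without mice 7 and 8, Cxcr2 was -0.13, S100a9 -0.048, Chil3 -0.11 and Ngp -0.17, and without all 3 libraries Retnlg was 0.0062. Without 1 library, Retnlg ranged from -0.32 to 0.39 and Ltf from -1.07 to 0.75. Differences in mean log2 CPM that turned were Prtn3 -0.00021 with a prior count of 5 under the standard diet and, without the 3 libraries, Cxcr2 0.078 under the HFD and S100a8 0.31 and Cxcr2 0.21 under the standard diet.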
